A study of Mus musculus with 39 samples.

Results

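Lung gene expression with acute pancreatitis (AP) was compared with that after a sham operation in wild-type (WT) C57BL/6N mice. The comparison covers the 5 WT AP and 5 WT sham lung libraries, 10 of the 39 libraries of a study of mRNA-enriched RNA from lung and colon. The members were chosen by tissue, genotype and treatment as the labels give them. Set beside them are 5 KO AP and 5 KO sham lung libraries, from mice of the same strain in which Cd177 was knocked out, and 5 WT AP and 5 WT sham colon libraries. The sources used here do not state the way pancreatitis was brought about, the time of sampling or whether libraries are separate animals, so p-values measure the spread between libraries. All 15978 genes with at least 1 FPKM (fragments scaled to transcript length and library total) in at least 4 lung libraries were tested.

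Acute pancreatitis is an inflammation of the exocrine pancreas in which released enzymes and cytokines reach other organs through the blood. The lung is the distant organ most often injured: neutrophils and monocytes leave the pulmonary capillaries, and the barrier of endothelium and alveolar epithelium can become leaky. Lung cells also carry a circadian clock, in which the activator pair CLOCK and BMAL1 drives its own repressors, and which is set in part by adrenal glucocorticoids.

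The libraries held between 59.1 and 65.4 M reads in AP and between 57.9 and 71.2 M reads in sham, a depth read off the step size of low FPKM values (M, the metric prefix mega). Both groups carried lung markers at high level. The 16 alveolar type 2 markers summed to 26368 to 38960 FPKM in AP and to 23964 to 35243 FPKM in sham. Of 12 pancreatic acinar genes, Amy2a5, Cela2a and Pnlip were listed at 0 in all 10 libraries. The 12 genes summed to 3.23 to 4.70 FPKM in AP and to 2.73 to 3.76 FPKM in sham. Only 2 of them, Cela1 and Ctrl, were high enough to test, and neither passed. AP replicate 4 stood apart: its mean correlation with the other AP libraries was 0.968, against 0.980 to 0.988 for the other 9 libraries with their own groups, and mitochondrially encoded genes took 11.4% of its FPKM, against 4.77% to 6.62% elsewhere. On the second principal component, which held 21.8% of the variance, AP replicate 4 lay on the side of 4 sham libraries and sham replicate 1 on the side of 4 AP libraries. Counts over gene groups were therefore also taken without AP replicate 4 and without sham replicate 1. Both were picked from these same values, so higher counts without them are not independent support. Leaving them out gave 349 and 276 passing genes, and leaving out any other single library gave 27 to 181. Cd177, a surface protein gene of neutrophils, was listed at 0 in every KO lung library.

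In WT lung with pancreatitis the clock output gene Dbp, the neutrophil genes S100a8 and S100a9, the class II antigen presentation genes H2-Aa and H2-Ab1 and the death ligand gene Tnfsf10 rose. Cdkn1a, Klf4, Pde4b, the clock activator Arntl, the forkhead factor gene Foxf1, the endothelial receptor gene S1pr1 and the Notch ligand gene Dll1 fell. In all, 110 of the 15978 genes passed (0.688%), 28 higher (0.175%) and 82 lower (0.513%) with AP. The test was limma on log2(FPKM + 1) with a Benjamini-Hochberg adjusted p under 0.05 over all genes tested, and 2868 genes (17.9%) had an unadjusted p under 0.05. Among the passing genes 6 were at least 2-fold higher and 9 at least 2-fold lower, and in 109 of the 110 the values of the groups did not overlap. Over all genes tested, 194 did not overlap with higher values in AP (1.21%) and 614 with lower values (3.84%). In bulk tissue, fewer cells of a type and less RNA per cell cannot be told apart.

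The number of genes that passed depended on the libraries and on the fit. Without AP replicate 4, 349 genes passed (2.18%), 183 higher (1.15%) and 166 lower (1.04%). Without sham replicate 1, 276 passed (1.73%), 122 higher (0.764%) and 154 lower (0.964%). All 110 genes also passed without AP replicate 4 and 107 without sham replicate 1. Without sham replicate 2 only 27 passed, and 22 of the 110 passed whichever single library was left out. A fit that took its variance from all 20 lung libraries, WT and KO, passed 13 genes, of which 12 were among the 110. With values scaled to the upper quartile of each library the split was 33 higher and 58 lower. The change went with the annotated transcript length, taken as the median over a gene's transcripts. The higher passing genes had a median length of 991 bases and the lower ones of 1903 bases, against 1292 bases over the 15879 tested genes with a length. Over all tested genes the Spearman correlation of length with the log2 change was -0.20. It was -0.13 without AP replicate 4 and -0.19 without sham replicate 1. The part of length in the result was not tested.

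**Figure D1:**
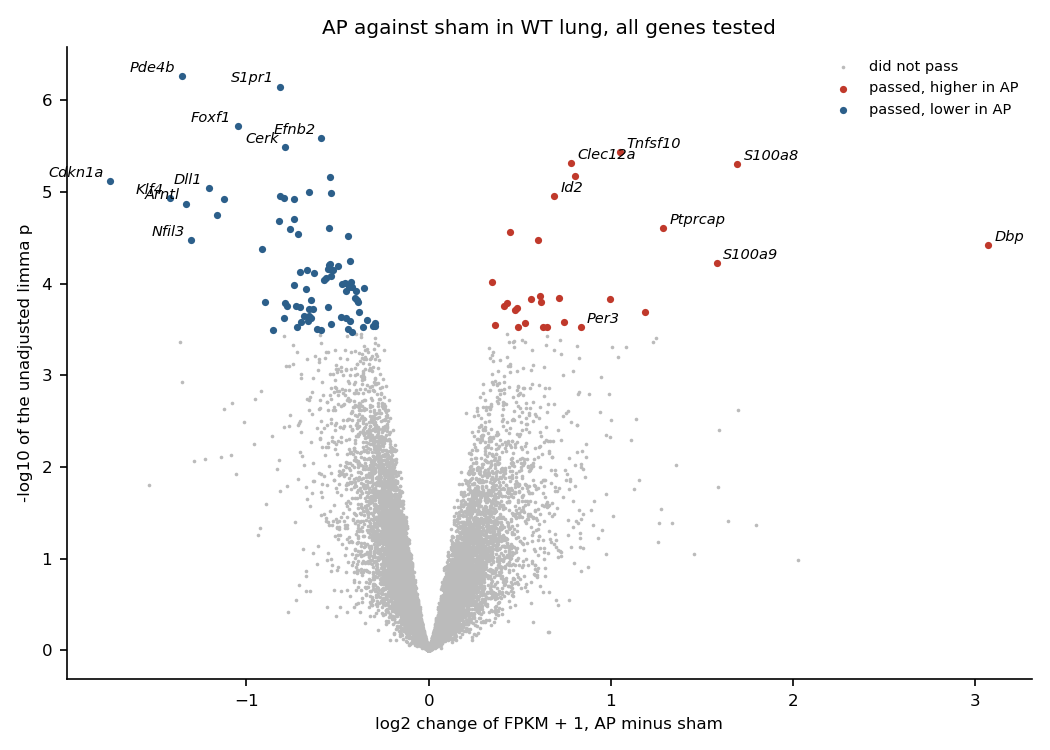
Log2 change of FPKM + 1 (AP minus sham, x axis) against the -log10 of the unadjusted limma p (y axis) for the 15978 genes tested in WT lung, with the 28 genes that passed and were higher in AP in red and the 82 that passed and were lower in blue. Dbp stands far to the right of every other passing gene at 3.07, and Cdkn1a is the passing gene farthest to the left at -1.75.

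The circadian clock genes that passed moved in both directions: Dbp and Per3 rose, and Arntl and Nfil3 fell. The time of sampling is not stated for either group, and its part in the values of these circadian genes was not tested. Clock genes were read with their promoters in view, because clock factors are known to act on the promoters of other clock genes. DBP and NFIL3 compete for the D-box, and the ROR activators and REV-ERB repressors compete for the element called RORE. The printed windows are those of Per3 and Arntl, the clock genes that passed and whose RefSeq promoter (250 bases before to 50 after the start, GRCm38.p6, 5′ to 3′ on the gene's strand) held one of the motifs searched. The capitals mark a D-box in Per3 (chr4:151044616-151044915, minus strand) and a RORE in Arntl (chr7:113207261-113207560, plus strand).
Per3: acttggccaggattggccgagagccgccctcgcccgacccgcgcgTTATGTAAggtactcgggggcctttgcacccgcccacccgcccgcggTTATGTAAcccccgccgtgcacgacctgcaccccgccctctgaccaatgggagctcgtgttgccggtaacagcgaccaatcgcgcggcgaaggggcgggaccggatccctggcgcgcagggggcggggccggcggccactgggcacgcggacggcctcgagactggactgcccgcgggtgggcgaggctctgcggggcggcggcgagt
Arntl: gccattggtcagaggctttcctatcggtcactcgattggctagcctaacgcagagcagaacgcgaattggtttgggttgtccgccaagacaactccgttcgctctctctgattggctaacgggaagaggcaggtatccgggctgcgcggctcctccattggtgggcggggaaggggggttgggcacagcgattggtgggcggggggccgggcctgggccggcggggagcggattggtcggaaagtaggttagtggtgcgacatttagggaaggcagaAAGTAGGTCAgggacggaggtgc

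The Per3 window held 2 D-boxes, with the letters TTATGTAA, beginning 205 and 158 bases before the start. The printed Arntl window, 1 of 2 listed for the gene, held 1 RORE, AAGTAGGTCA, beginning 27 bases after the start. The other Arntl window (chr7:113207215-113207514) held none of the motifs searched. Both strands were searched for the D-box TTATGNAA, the RORE, the E-box CACGTG bound by CLOCK and BMAL1, and the glucocorticoid receptor element; no match overlapped another in the printed windows. Of 32851 RefSeq mouse promoters of this length, 3.38% held the D-box, 0.219% the RORE, 7.15% the E-box and 0.00913% the glucocorticoid element. Of the 23 clock list genes 19 were in the promoter table, of which 6 held an E-box, 3 a D-box and 1 a RORE. The windows of Dbp and Nfil3 held none of these letters. A D-box stood in 4 of the 22 higher passing genes with a RefSeq window, against 2 of the 65 lower ones and 2.54% of the tested genes in the table. An E-box stood in 2 of the 22 higher and 6 of the 65 lower ones, and in 11.2% of the tested genes.

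Dbp, a transcription factor that the clock drives and that activates D-box genes, changed most of all passing genes. It had 54.6, 26.6, 77.9, 69.8 and 49.3 FPKM in the AP libraries, against 3.29, 1.32, 4.78, 8.66 and 17.6 FPKM in the sham libraries. Every AP value was above the highest sham value, and both groups varied widely. Its log2 change was 3.07 ± 0.48 (SE, n = 5 each; adjusted p = 0.0185, limma), and it passed in 8 of the 10 fits that left out a library, the exceptions being AP replicate 3 and sham replicate 3. An exon of Sphk2 overlaps Dbp on the other strand in the annotation used, and since strand marking is not given, reads of the pair cannot be told apart.

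Per3, a clock repressor gene of the period family, followed Dbp across the libraries. Its values were 16.6, 11.7, 19.4, 18.2 and 19.5 FPKM in AP, against 7.92, 6.93, 8.68, 9.35 and 13.0 FPKM in sham. The groups overlapped by a single pair, AP replicate 2 lying below sham replicate 5, the libraries that also had the lowest Dbp of AP and the highest Dbp of sham. The log2 change of 0.83 ± 0.16 passed narrowly (SE; adjusted p = 0.0456, limma). Per3 passed in 3 of the 10 fits that left out a library, those without AP replicate 2, AP replicate 4 or sham replicate 5.

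Arntl, which encodes BMAL1, moved the other way. It had 5.17, 8.39, 3.56, 3.92 and 4.14 FPKM in AP, against 15.4, 16.5, 13.2, 13.4 and 10.4 FPKM in sham. No AP value reached the lowest sham value, and the AP library with the most Arntl was replicate 2, the one with the least Dbp. The log2 change was -1.33 ± 0.19 (SE; adjusted p = 0.0102, limma), and Arntl passed in all 10 fits that left out a library. Nfil3, a repressor that binds the D-box, had 4.16, 3.87, 2.15, 2.11 and 3.04 FPKM in AP, against 13.0, 10.9, 7.84, 7.65 and 6.15 FPKM in sham. These groups did not overlap either, and the log2 change was -1.30 ± 0.20 (SE; adjusted p = 0.0167, limma), past the threshold unless AP replicate 3 or sham replicate 2 was left out.

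The other members of the clock list did not pass. Nr1d1, which encodes the repressor REV-ERB alpha, had 126, 84.2, 113, 109 and 90.6 FPKM in AP, against 11.4, 15.9, 47.6, 66.0 and 70.9 FPKM in sham. The groups did not overlap, but the sham libraries ranged widely and its log2 change of 1.59 ± 0.45 did not pass (SE; adjusted p = 0.108, limma); its exons overlap those of Thra on the other strand. Its partner Nr1d2 had a log2 difference of 0.97 ± 0.28 (SE; adjusted p = 0.113, limma). Of the activators, Npas2 had -1.02 ± 0.28 and Clock -0.36 ± 0.10 (SE), and of the repressors Cry1 had -0.76 ± 0.20 and Bhlhe41 0.57 ± 0.14 (SE). Per1, Per2, Cry2 and Ciart had log2 changes of -0.57, -0.07, -0.18 and 0.03. All 5 activators were below 0, with a median of -0.36, and 6 of the 10 repressors were above 0, with a median of 0.19. In the whole list of 23 genes, 2 passed as higher and 2 as lower, 10 were above 0 and the median was -0.07, beside 46.9% above 0 and a median of -0.01 over all genes tested. Over all genes tested, 0.175% passed as higher and 0.513% as lower. In this list 2 genes passed as higher and 3 as lower without AP replicate 4 (1.15% and 1.04% of all genes). Without sham replicate 1, 1 passed as higher and 2 as lower (0.764% and 0.964%).

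**Figure D2:**
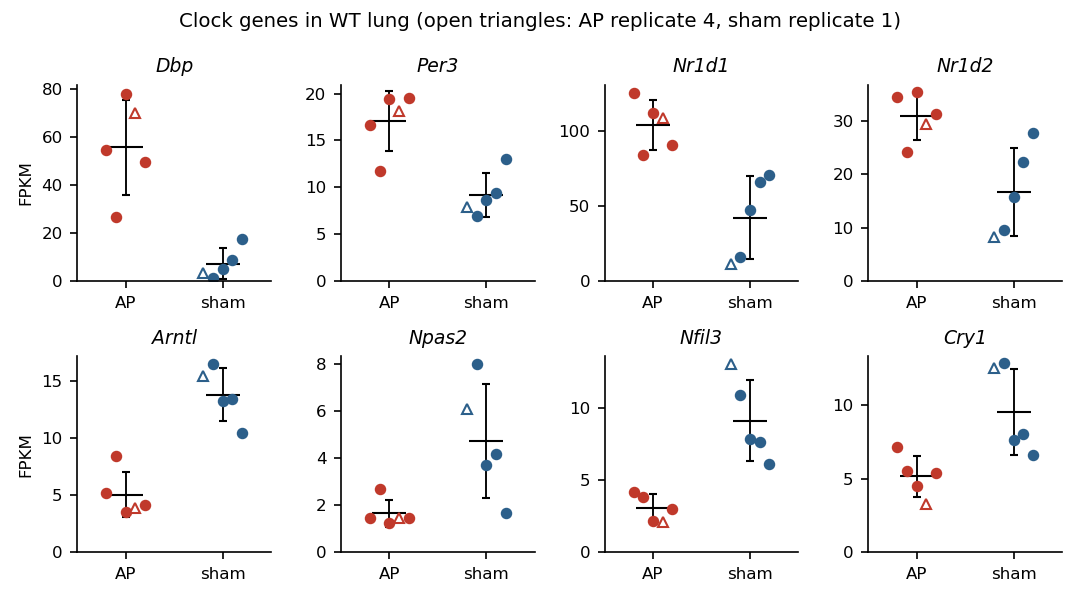
FPKM of 8 clock genes in each WT lung library (points), AP to the left of sham, with the mean and SD of each group (bars, n = 5); open triangles are AP replicate 4 and sham replicate 1. Dbp, Nr1d1, Arntl and Nfil3 do not overlap between the groups, while Per3, Nr1d2, Npas2 and Cry1 do.

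Across the 10 WT lung libraries the genes most like Dbp on the log2 scale were Per3, with a Pearson r of 0.97, and Ubald2, Chst12, Sema4b, Rasd2 and Etv5, with r from 0.93 to 0.94. The genes most opposite were Gdpd2, with an r of -0.99, Adnp2, Mat2a, Pom121, Camta2 and Arntl, with r from -0.97 to -0.96. These are descriptions over libraries that share the AP and sham split. Within the AP libraries alone, r with Dbp was 0.88 for Per3 and -0.94 for Arntl, and within the sham libraries 0.97 and -0.95. Other likenesses were weaker within a group: Etv5 had an r of 0.12 within AP and 0.90 within sham, and Chst12 of 0.56 and 0.67. Gdpd2, a glycerophosphodiester phosphodiesterase gene, had 13.5, 14.1, 12.8, 12.2 and 14.1 FPKM in AP, against 26.7, 31.1, 24.3, 21.9 and 19.0 FPKM in sham. Its log2 change was -0.82 ± 0.11 (SE; adjusted p = 0.00949, limma). Mat2a, which makes the methyl donor S-adenosylmethionine, fell by 0.66 on the log2 scale.

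Most glucocorticoid-responsive genes had lower values with AP. Of 21 such genes 2 passed, both lower, 19 were below 0 and the median log2 change was -0.57, where 0.513% of all genes tested passed as lower and 53.1% were below 0. Cdkn1a, the cell cycle inhibitor p21 and also a p53 target, had 82.6, 60.3, 42.2, 50.2 and 104 FPKM in AP, against 189, 269, 205, 172 and 277 FPKM in sham. The groups were far apart, with a log2 difference of -1.75 ± 0.23 (SE; adjusted p = 0.00949, limma), the largest fall among the passing genes. Cdkn1a, Clec12a and Id2 passed under every alternative tried, alone among the 35 passing genes for which all alternatives were run. Angptl4, an inhibitor of lipoprotein lipase that is induced in fasting, had 46.3, 37.9, 32.6, 36.4 and 55.3 FPKM in AP, against 61.4, 60.3, 64.9, 62.4 and 66.6 FPKM in sham, and fell by 0.61 on the log2 scale (adjusted p = 0.0469, limma).

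Several defining targets of the glucocorticoid receptor did not pass. Tsc22d3, the leucine zipper gene also called GILZ, had 208, 157, 184, 204 and 305 FPKM in AP, against 331, 372, 307, 306 and 464 FPKM in sham. The groups came within 1 FPKM of each other without overlapping, and the log2 change of -0.77 ± 0.17 did not pass (SE; adjusted p = 0.0653, limma). Ddit4, an inhibitor of mTOR signalling, had a log2 change of -1.29 ± 0.41, Map3k6 of -0.82 ± 0.26 and Sgk1, a kinase that raises sodium transport, of -0.56 ± 0.14 (SE), none past the threshold. The median of the list was -0.57 without AP replicate 4 and -0.50 without sham replicate 1, with the same count of 2 passing. Of the 23 measured p53 targets 2 fell, Cdkn1a and the death receptor gene Tnfrsf10b, and the median was -0.12. Of all genes tested, 0.513% passed as lower. In the fit without AP replicate 4 and in that without sham replicate 1, 3 of these targets passed as lower in each case. Among all genes 1.04% and 0.964% did so in these fits.

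Tnfrsf10b and the ligand that binds its product changed in opposite directions. The receptor gene had 1.82, 2.27, 1.63, 1.59 and 1.59 FPKM in AP, against 6.51, 7.10, 3.93, 3.69 and 4.70 FPKM in sham. The change was -1.12 ± 0.15 in log2 (SE; adjusted p = 0.00949, limma). Tnfsf10, which encodes the death ligand TRAIL, had 28.9, 35.0, 29.7, 24.1 and 24.2 FPKM in AP, against 14.1, 11.9, 14.3, 15.6 and 10.01 FPKM in sham. TRAIL's gene changed by 1.05 ± 0.13 in log2 (SE; adjusted p = 0.00949, limma), and in neither gene did the groups overlap.

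Most neutrophil genes had higher values in AP lung. S100a8 and S100a9, the calprotectin subunits that fill the neutrophil cytosol, were the only members of the mature neutrophil list that passed, 2 of 19 tested, with 18 above 0 and a median log2 change of 0.82. Of all genes tested, 0.175% passed as higher and 46.9% were above 0. Without AP replicate 4, 5 members passed (1.15% of all genes as higher), and likewise 5 without sham replicate 1 (0.764%). The median was 0.69 without AP replicate 4 and 0.79 without sham replicate 1.

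S100a8 had 265, 237, 227, 293 and 241 FPKM in AP, against 84.8, 112, 96.3, 70.3 and 42.0 FPKM in sham. No AP value came near the sham values, and the log2 change was 1.69 ± 0.21 (SE; adjusted p = 0.00949, limma). S100a9 had 355, 268, 265, 434 and 291 FPKM in AP, against 119, 161, 138, 89.3 and 54.1 FPKM in sham. Its log2 change was 1.58 ± 0.26 (SE; adjusted p = 0.0261, limma), and AP replicate 4 had the most of both genes. S100a9 did not pass without AP replicate 1, 2 or 3 or sham replicate 4.

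Other neutrophil genes were separate between the groups without passing. Retnlg, a resistin-like secreted protein gene, had 58.2, 45.0, 56.3, 102 and 62.0 FPKM in AP, against 32.2, 39.0, 28.3, 22.4 and 14.8 FPKM in sham, with a log2 difference of 1.23 ± 0.25 (SE; adjusted p = 0.0543, limma). Mmp8, the neutrophil collagenase, averaged 5.41 ± 1.25 FPKM in AP and 2.28 ± 0.99 FPKM in sham (SD, n = 5 each), and Stfa2l1, of the stefin family, 4.87 ± 1.77 and 1.52 ± 0.952 FPKM in the same groups. In all, 6 of the 19 did not overlap, all higher in AP, where 1.21% of all genes tested did. The precursor granule genes Mpo and Elane were too low to test, at 1.20 and 0.949 FPKM or less in any AP library and at 0.522 and 0.353 FPKM or less in any sham library.

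Cd177, the gene that defines the study's knockout, did not pass in WT lung. It had 2.1, 3.37, 2.36, 3.92 and 4.18 FPKM in AP, against 3.59, 1.8, 2.02, 1.3 and 1.39 FPKM in sham. Sham replicate 1 lay among the AP libraries, and the log2 change was 0.49 ± 0.20 (SE; adjusted p = 0.234, limma). An exact two-sided permutation test of the FPKM gave p = 0.0714 for a difference of 1.18 FPKM, and p = 0.0159 for 1.57 FPKM without sham replicate 1. Without AP replicate 1 this exact p was 0.0476 for 1.45 FPKM, and over the other omissions it reached 0.143. Padi4, which encodes the enzyme that citrullinates histones in neutrophils, averaged 2.29 ± 0.539 FPKM in AP and 2.03 ± 0.90 FPKM in sham (SD, n = 5 each; adjusted p = 0.693, limma).

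A few monocyte and antigen presentation genes were higher too. Of the 24 measured monocyte and macrophage genes 3 rose, 19 were above 0 and the median log2 change was 0.39. Over all genes tested, 0.175% passed as higher and 46.9% were above 0. Clec12a, an inhibitory lectin receptor of myeloid cells, had 4.28, 3.97, 3.96, 3.20 and 3.58 FPKM in AP, against 2.18, 1.57, 1.84, 1.97 and 1.44 FPKM in sham. The groups did not overlap, with a log2 difference of 0.78 ± 0.10 (SE; adjusted p = 0.00949, limma). H2-Aa and H2-Ab1, the chains of the class II molecule that presents antigen to helper T cells, averaged 239 ± 32.8 and 210 ± 32.3 FPKM in AP and 152 ± 25.1 and 135 ± 18.6 FPKM in sham (SD, n = 5 each). Their log2 changes were 0.65 and 0.63 (adjusted p = 0.0456 for each, limma), and each passed in 3 of the 10 fits that left out a library, those without AP replicate 4, AP replicate 5 or sham replicate 1.

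Both class II genes were lowest among the AP libraries in replicates 4 and 5, and neither overlapped between the groups. H2-DMb1, which helps load class II molecules, also rose, by 0.56 on the log2 scale, and was chosen for mention after its values were seen. Ccr2, the chemokine receptor that draws monocytes into tissue, averaged 8.15 ± 2.18 FPKM in AP and 4.26 ± 1.14 FPKM in sham (SD, n = 5 each) and did not pass (log2 0.79 ± 0.18, SE; adjusted p = 0.0664, limma). Without AP replicate 4, 8 of the 24 genes passed (1.15% of all genes as higher) and the median was 0.56. Without sham replicate 1, 4 passed (0.764% of all genes) and it was 0.46.

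Further named rises included genes of leukocytes and of growth control. Ptprcap, which encodes a partner of the leukocyte phosphatase CD45, had 3.78, 3.59, 4.89, 6.58 and 3.91 FPKM in AP, against 2.49, 0.778, 0.908, 1.08 and 1.26 FPKM in sham, with a log2 difference of 1.29 ± 0.19 (SE; adjusted p = 0.0152, limma). It shares exon sequence with Coro1b and Rps6kb2, so its reads are uncertain. Mir142b lies opposite Mir142, a microRNA gene of blood cells, and averaged 15.8 ± 4.41 FPKM in AP and 7.22 ± 1.07 FPKM in sham (SD, n = 5 each); libraries of enriched mRNA do not measure mature microRNAs. Rnase6, an antimicrobial ribonuclease gene, rose by 0.81 ± 0.10 (SE, log2).

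Id2, an inhibitor of basic helix-loop-helix factors, had 62.5, 53.6, 57.8, 64.6 and 50.2 FPKM in AP, against 32.1, 35.2, 41.3, 37.8 and 31.1 FPKM in sham. The groups were separate, with a log2 difference of 0.69 ± 0.09 (SE; adjusted p = 0.00949, limma), while its relative Id1, chosen for mention after its values were seen, fell by 0.66. Wnt7a, a Wnt ligand gene, rose by 0.74, Zfp503, a zinc finger repressor gene, by 0.71 and Rgs2, a regulator of G-protein signalling, by 0.62 on the log2 scale. Each of these 3 passed in no more than 4 of the 10 fits that left out a library.

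The named falls included the genes of a receptor, a transcription factor and a pair of ligands. S1pr1, the endothelial receptor for sphingosine 1-phosphate that tightens the barrier, had 91.3, 80.4, 93.5, 80.1 and 104 FPKM in AP, against 156, 174, 157, 143 and 163 FPKM in sham. Replicates lay close together in both groups, and the log2 change of -0.82 ± 0.09 had, with that of Pde4b, the lowest adjusted p of all genes (SE; adjusted p = 0.00568, limma). Foxf1, a forkhead factor of lung mesenchyme and endothelium, had 103, 85.8, 81.1, 72.2 and 94.0 FPKM in AP, against 200, 224, 156, 159 and 171 FPKM in sham. Its log2 change was -1.05 ± 0.12 (SE; adjusted p = 0.00949, limma), and AP replicate 4 was lowest for both genes.

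Dll1, a Notch ligand gene, had 18.6, 13.9, 11.7, 9.79 and 11.6 FPKM in AP, against 25.8, 40.3, 26.0, 31.6 and 32.8 FPKM in sham, with a log2 difference of -1.21 ± 0.16 (SE; adjusted p = 0.00949, limma). Efnb1, which encodes an ephrin ligand, had 62.3, 51.0, 50.5, 39.8 and 65.1 FPKM in AP, against 84.5, 100.01, 95.3, 91.2 and 103 FPKM in sham, with a log2 difference of -0.82 ± 0.12 (SE; adjusted p = 0.0139, limma). Neither overlapped between the groups. Other passing genes, chosen for mention after their values were seen, were Efnb2, the arterial ephrin ligand gene, which fell by 0.59, Notch1, the receptor gene, by 0.59, Epha2, an ephrin receptor gene, by 0.43, and Bmp6, a bone morphogenetic protein gene, by 0.45 on the log2 scale.

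No gene of the endothelial marker list passed. Of 20 tested, 15 were below 0, where 53.1% of all genes tested were, and the median log2 change was -0.20. None passed without AP replicate 4 or without sham replicate 1. The 20 genes summed to 2481 to 2796 FPKM in AP and to 2694 to 3315 FPKM in sham. Cldn5, the tight junction claudin of endothelium, had 335, 348, 261, 380 and 261 FPKM in AP, against 408, 469, 390, 382 and 438 FPKM in sham, a log2 change of -0.41 that did not pass (adjusted p = 0.12, limma). Cdh5, which encodes VE-cadherin, did not overlap either and had a log2 change of -0.27 (adjusted p = 0.17, limma). Pecam1 averaged 247 ± 26.8 FPKM in AP and 284 ± 17.7 FPKM in sham (SD, n = 5 each; adjusted p = 0.265, limma). The part of endothelial content in the falls above was not tested.

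Klf4, a Kruppel-like factor that restrains inflammation in endothelium, had 37.8, 30.4, 27.9, 22.9 and 40.7 FPKM in AP, against 110.7, 109.7, 63.7, 63.7 and 92.0 FPKM in sham. Sham varied more than AP without overlap, and the log2 change was -1.42 ± 0.20 (SE; adjusted p = 0.00949, limma). Its relative Klf2, induced by shear stress, had a log2 change of -1.08 ± 0.27 that did not pass (SE; adjusted p = 0.0881, limma), and Klf6 fell by 0.30. Of the 19 immediate early genes, in which Klf4 and Klf6 are counted, these 2 passed, both lower, and the median was -0.20. Among all genes tested, 0.513% passed as lower. Leaving out AP replicate 4, 3 of the list passed as lower (1.04% of all genes) and the median was -0.22. Without sham replicate 1, 2 passed (0.964% of all genes) and it was -0.06. The classical members Fos, Jun and Egr1 had log2 changes of -0.15, -0.09 and 0.17 and did not pass.

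Pde4b, the phosphodiesterase that breaks down cyclic AMP in leukocytes and other cells, had 15.6, 15.8, 11.8, 10.4 and 9.96 FPKM in AP, against 36.8, 40.4, 30.01, 30.2 and 31.2 FPKM in sham. The log2 change was -1.36 ± 0.14 (SE; adjusted p = 0.00568, limma). Tbc1d8, a Rab GTPase-activating protein gene with exons opposite Rpl31, fell by 1.16, Slc38a4, an amino acid transporter gene, by 0.91, and Nos1ap, an adaptor of neuronal nitric oxide synthase, by 0.90 on the log2 scale. Rasl11a, a small GTPase gene, fell by 0.86. Ptprcap and Efnb1 did not pass without AP replicate 3 or sham replicate 2, Slc38a4 without AP replicates 2 or 3 or sham replicates 2 or 3, and Nos1ap without AP replicates 1, 2 or 3 or sham replicates 2, 3 or 4. Angptl4, Klf6, Mir142b and Rasl11a each passed in 3 of the 10 fits that left out a library. In the annotation used, Bmp6 has exons overlapping Txndc5, Mat2a Particl and Il1b Il1bos, each on the other strand, and Arntl, Bhlhe41, Cdkn1a, Cry2, Dll1, Foxf1, Gdpd2, Nos1ap, Notch1 and Nppa share exon sequence with a less known gene; the values of all these are uncertain to that extent.

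**Figure D3:**
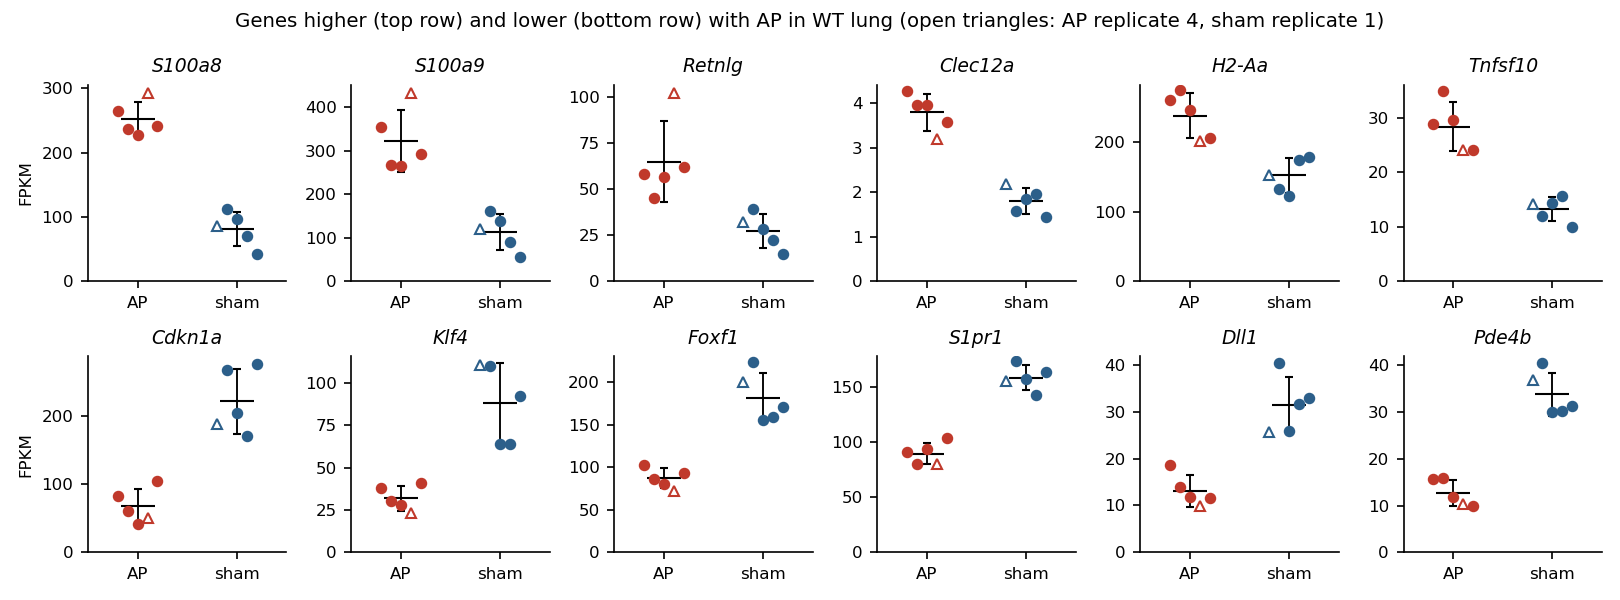
FPKM in each WT lung library (points), AP to the left of sham, with the mean and SD of each group (bars, n = 5), for 6 genes higher in AP (top row; Retnlg did not pass) and 6 lower (bottom row); open triangles are AP replicate 4 and sham replicate 1. In all 12 genes the groups do not overlap.

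Inflammatory cytokine and chemokine genes did not rise past the threshold. Of 25 tested, 1 passed, Il33, an alarmin gene of the alveolar epithelium, which had 22.8, 17.6, 17.3, 19.3 and 18.1 FPKM in AP, against 27.0, 28.3, 24.6, 32.8 and 27.4 FPKM in sham. Il33 changed by -0.54 ± 0.09 in log2 (SE; adjusted p = 0.0284, limma), and the groups did not overlap; it did not pass without AP replicates 2 or 3 or sham replicates 2, 4 or 5. Il1b averaged 11.7 ± 3.56 FPKM in AP and 6.33 ± 2.69 FPKM in sham (SD, n = 5 each) and did not pass (adjusted p = 0.156, limma), and neither did Cxcl1, the neutrophil chemokine gene, at 0.591 ± 0.461 FPKM in AP and 1.93 ± 1.02 FPKM in sham (SD, n = 5 each; adjusted p = 0.114, limma). Il6 was too low to test, at no more than 0.0472 FPKM in AP and 0.0695 FPKM in sham. Of the 25 genes 20 were above 0, where 46.9% of all genes tested were, and the median of the list was 0.21. Over all genes tested, 0.513% passed as lower. Without AP replicate 4, 1 gene of the list passed, as lower (1.04% of all genes), and likewise 1 without sham replicate 1 (0.964%).

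Interferon-stimulated, cell cycle and T and NK cell genes had medians above 0, and more of them passed once AP replicate 4 was left out. None of the 30 interferon-stimulated genes passed, although 29 were above 0, where 46.9% of all genes tested were, with a median log2 change of 0.46. Without AP replicate 4, 9 passed, all higher, and the median was 0.73, against 1.15% of all genes passing as higher. Without sham replicate 1 none passed and the median was 0.46. Iigp1, an interferon-inducible GTPase gene, had 51.4, 31.1, 23.0, 10.6 and 38.0 FPKM in AP, against 12.2, 10.1, 10.3, 14.9 and 13.9 FPKM in sham. AP replicate 4 lay within the sham range and the other 4 AP libraries above it.

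Of the 30 cell cycle genes 1 passed and all 30 were above 0, with a median log2 change of 0.45. Over all genes tested, 0.175% passed as higher and 46.9% were above 0. All 20 cytosolic ribosomal protein genes and all 13 mitochondrially encoded genes tested were above 0 as well. Cks2, a subunit of the mitotic cyclin-dependent kinase, averaged 7.40 ± 0.979 FPKM in AP and 4.52 ± 0.329 FPKM in sham (SD, n = 5 each), which differ by 0.60 ± 0.09 in log2 (SE; adjusted p = 0.0167, limma). Cks2 did not pass without AP replicate 2 or sham replicates 2 or 3. Without AP replicate 4, 13 of the 30 passed (1.15% of all genes as higher) and the median was 0.61. Without sham replicate 1, 1 passed (0.764% of all genes) and it was 0.52. Aurkb, a mitotic kinase gene, had 2.81, 2.73, 1.72, 0.957 and 2.53 FPKM in AP, against 1.54, 0.876, 0.983, 0.889 and 0.793 FPKM in sham, and again AP replicate 4 fell within the sham range.

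None of the 23 T and NK cell genes passed with all libraries, the median log2 change being 0.40. Without AP replicate 4, 4 passed (1.15% of all genes as higher), all among the 11 NK and cytotoxic genes, and the median was 0.64. Without sham replicate 1 none passed and the median was 0.53. Ncr1, the NK cell receptor NKp46, had 6.00, 5.08, 4.19, 1.45 and 4.71 FPKM in AP, against 2.75, 1.19, 2.0, 2.15 and 0.979 FPKM in sham. Here too AP replicate 4 alone lay within the sham range. Of the 13 B and plasma cell genes none passed, with a median of 0.49, and none did in either omission.

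No member of the lists of alveolar epithelium, matrix and junction genes passed with all libraries. The medians were -0.09 for both alveolar type 1 and type 2 genes, -0.02 for matrix and fibroblast genes and -0.06 for junction genes, over 14, 16, 27 and 18 members in that order. A single alveolar type 2 gene, 1 of 16, passed as higher without AP replicate 4 (1.15% of all genes). Without sham replicate 1 no member of these lists passed. One of the 14 heat shock genes fell, Dnajb1, a cochaperone of HSP70, which averaged 11.3 ± 1.82 FPKM in AP and 18.4 ± 3.12 FPKM in sham (SD, n = 5 each; adjusted p = 0.0447, limma) and passed only without AP replicate 4 or sham replicate 1 when a library was left out, and the list median was -0.27. In fasting and fatty acid oxidation genes 14 of 15 were below 0, where 53.1% of all genes tested were, with a median of -0.29, and Angptl4 alone passed. Over all genes tested, 0.513% passed as lower. In either omission the heat shock list and the fasting list each had 1 passing gene, lower. Of all genes, 1.04% passed as lower without AP replicate 4 and 0.964% without sham replicate 1.

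Markers of tissue that can come along with a lung differed between libraries. The 13 cardiac muscle genes summed to 243 to 589 FPKM in AP and to 136 to 609 FPKM in sham, with a median log2 change of 0.50, and the 9 adipocyte genes to 89.5 to 183 FPKM in AP and to 59.2 to 196 FPKM in sham, with a median of 0.60. None of either list passed with all libraries or without AP replicate 4, where the medians were 0.38 and 0.74. Without sham replicate 1, 1 gene of each list passed as higher (0.764% of all genes). The medians were then 0.77 for cardiac muscle and 0.83 for adipocyte genes. Nppa, the atrial natriuretic peptide gene, had 40.9, 20.2, 5.30, 26.0 and 17.2 FPKM in AP, against 41.0, 3.83, 3.48, 1.23 and 3.52 FPKM in sham. Ltf, a granule and airway gland protein gene, had 87.8 FPKM in sham replicate 1 and no more than 10.2 FPKM in the other sham libraries, so that sham replicate 1 lay above every AP library in both genes. The part of these tissues in the results was not tested.

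**Figure D4:**
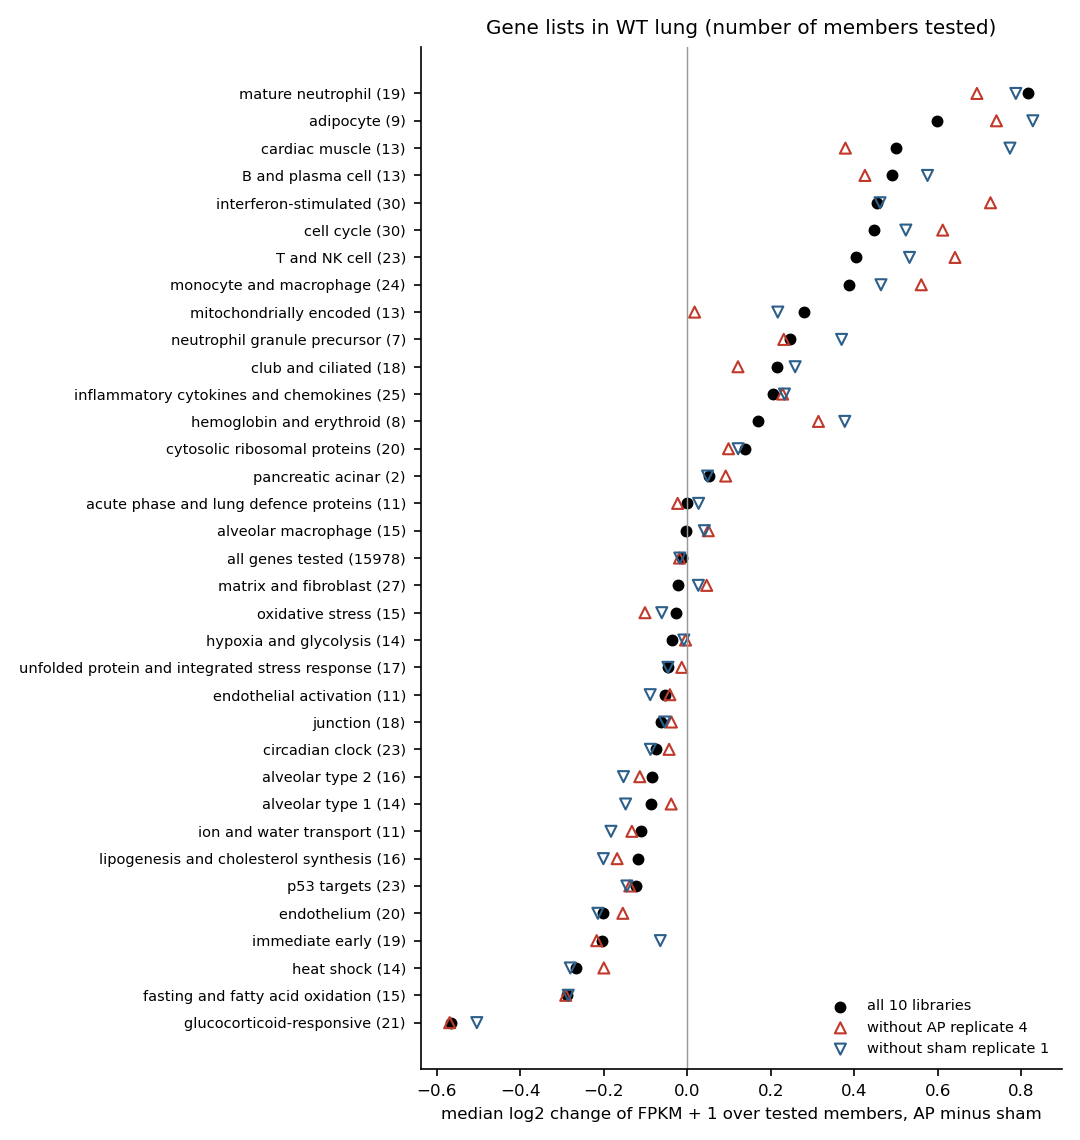
Median log2 change of FPKM + 1 (AP minus sham) over the tested members of each gene list in WT lung (number tested in brackets), with all 10 libraries (black dots), without AP replicate 4 (red open triangles) and without sham replicate 1 (blue open triangles). Mature neutrophil genes are highest at 0.82 and glucocorticoid-responsive genes lowest at -0.57; the interferon-stimulated median moves to 0.73 without AP replicate 4.

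AP against sham in KO lung, from a fit over all 20 lung libraries, passed 2 genes (0.0125%), Gm9747 and Itprid1, neither among the 110. In that same fit WT lung passed 13 genes. The 110 came from a fit of the WT libraries alone, and no fit of the KO libraries alone was run. In KO lung 2234 genes had an unadjusted p under 0.05 (14%). Of the 28 genes higher with AP in WT lung, 13 were above 0 in KO lung, where 46.9% of all genes were, and their median was -0.13 in KO lung and 0.64 in WT lung. Of the 82 lower genes, 63 were below 0 in KO lung, where 53% of all genes were, and their median was -0.13 in KO lung and -0.62 in WT lung. The WT values chose these genes, so the larger size in WT is no finding. None of the 110 had KO values that did not overlap, as 85 of all genes had with AP higher (0.532%) and 60 with AP lower (0.376%). The difference between the genotypes in the AP change passed for 0 of the 15978 genes in limma (0%), and 1384 had an unadjusted p under 0.05 (8.66%).

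S100a8 averaged 114 ± 64.9 FPKM in KO AP and 348 ± 419 FPKM in KO sham (SD, n = 5 each). Its KO log2 change of -0.62 did not pass (adjusted p = 0.69, limma), and the difference from WT did not pass either (adjusted p = 0.547, limma). Dbp averaged 58.6 ± 24.3 FPKM in KO AP and 40.6 ± 30.2 FPKM in KO sham (SD, n = 5 each), and its log2 change of 0.69 did not pass (adjusted p = 0.536, limma), while the WT minus KO difference had an adjusted p of 0.443 (limma). Arntl had a log2 change of 0.38 in KO lung, at 2.97 ± 1.25 FPKM in KO AP and 2.03 ± 0.836 FPKM in KO sham (SD, n = 5 each), and an adjusted p of the difference of 0.125 (limma). Pde4b had a log2 change of -1.40 ± 0.49 in KO lung (SE, adjusted p = 0.24, limma), beside -1.36 ± 0.14 in WT lung. Its KO groups overlapped, at 4.16 ± 3.97 FPKM in KO AP and 12.7 ± 11.4 FPKM in KO sham (SD, n = 5 each). In S100a8 both KO groups had a larger SD of FPKM than the WT groups. The same held for S100a9, S1pr1, Foxf1 and Efnb2, while Cdkn1a and Arntl had smaller SDs in KO than in WT lung. The KO lung libraries were deeper, at 77.0 to 95.4 M reads against 57.9 to 71.2 M in WT lung. They listed 21471 to 24648 genes above 0, against 24483 to 25696 in WT lung. The part of these differences in the KO values was not tested.

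**Figure D5:**
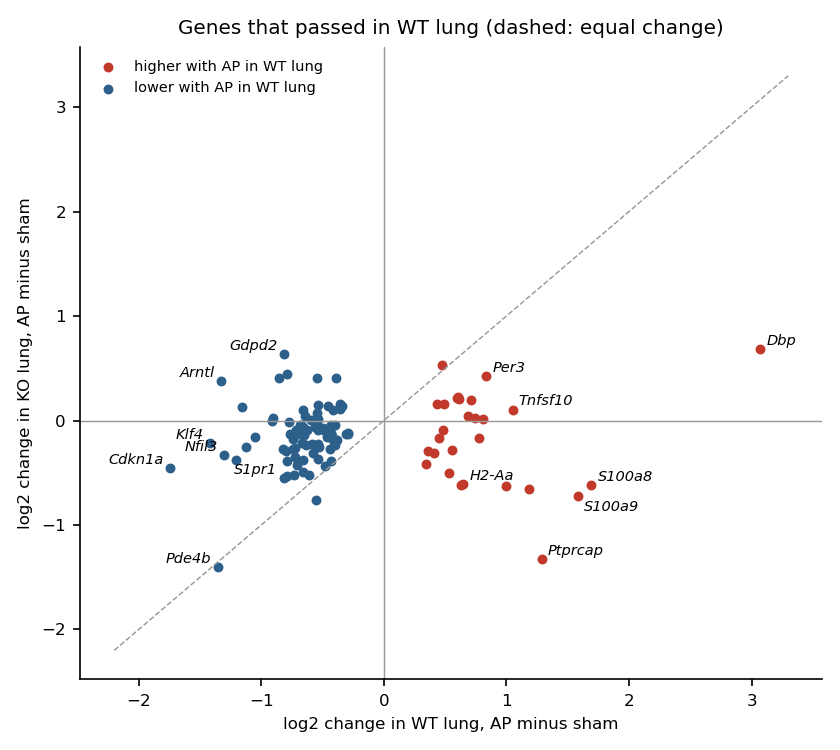
Log2 change of FPKM + 1 with AP in KO lung (y axis) against that in WT lung (x axis) for the 110 genes that passed in WT lung, red where higher and blue where lower in WT AP; the dashed line marks equal change. Most points lie nearer to 0 in KO lung, with medians of -0.13 for both colours, and Pde4b lies close to the dashed line.

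In WT colon 0 of 15001 genes passed in limma (0%), and 1785 had an unadjusted p under 0.05 (11.9%). Of the 28 higher lung genes 26 were measured in colon and 24 were above 0 there, where 53.6% of the genes measured in both were, with a median log2 change of 0.27. Of the 77 lower lung genes measured in colon 59 were below 0, where 46.4% were, with a median of -0.18. Over all 13635 genes measured in both tissues, 64.7% changed in the same direction in colon as in lung. Dbp had a log2 change of 1.62 in colon, Nr1d1 of 1.45, Cry1 of -0.64 and Arntl of -0.43. Cdkn1a had -0.01 and Klf4 -0.20. The labels do not tie lung and colon libraries to shared animals.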

How the data were processed

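Lung libraries of WT mice with AP and after sham operation were compared, and the groups follow the labels. The deposited values are FPKM, fragments scaled by the authors to transcript length and library total, with lung and colon in separate tables. The submitters' processing notes name HISAT2 2.1.0, StringTie 1.3.3b and mm39 but not what each was used for; annotation and strand setting are not given there. FPKM of genes with several transcripts are not whole reads, so no count test was run.

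Values were taken as log2(FPKM + 1), which understates changes of low genes, for genes reaching 1 FPKM in 4 or more lung libraries. limma 3.58.1 in R 4.3.3 with a variance trend was fitted to the 10 WT lung libraries, with Benjamini-Hochberg adjustment over 15978 genes and a threshold of 0.05. KO lung and the WT minus KO difference came from 1 fit over 20 lung libraries, and colon from its own fit over 10 WT colon libraries. The members and gene lists were chosen with earlier results of these data known. Depth of the 10 WT lung libraries lay between 57.9 and 71.2 M reads. It was chosen as the read total at which low values of genes with 1 transcript came nearest to whole reads. At that depth 98.8% to 99.2% of these low values came out whole within 0.01 read, which is not an independent check.

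Named were Cd177, Pecam1, Padi4, Mpo and Elane; the 15 largest rises and 15 largest falls among passing genes whose mean reached 2 FPKM in either group; the 10 genes of lowest p that did not pass; every measured clock gene; and of other lists the passing members and up to 4 others of lowest p. Left out of this ranking were 4 passing genes with predicted, clone or RIKEN names. Other names were chosen after their values were seen. Promoters are RefSeq windows of GRCm38.p6, and overlapping exons were read from GENCODE M21; no coordinates were joined with the files. Same-numbered AP and sham libraries deviated together with correlations from -0.162 to 0.084, so the numbers were not taken as pairs. The procedure was tested on simulated data. Python 3.11.15, numpy 2.4.6, pandas 2.3.3, scipy 1.17.1 and matplotlib 3.10.9 were used.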

Additional observations from a re-analysis of the deposited data

Results flagged for a closer look

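Of 144 groups of 5 values examined, 10 held a library whose gap to the nearest of the others exceeded the critical share of the range, 0.71; chance gives about 1 in 20 such groups. AP replicate 4 was the library in 5 of them. It had the highest share of mitochondrially encoded FPKM among the AP libraries, 11.39%, the highest total FPKM, 619215, and the lowest mean correlation with its own group, 0.9675. It also had the lowest Pecam1, 199.16 FPKM, and the lowest Acer2, 64.864 FPKM, of the AP libraries. Acer2, an alkaline ceramidase gene, was among the 10 genes of lowest p that did not pass.

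AP replicate 1 had the highest Clock among the AP libraries, 7.1302 FPKM, and AP replicate 2 the highest Npas2, 2.6869 FPKM. Sham replicate 1 had the highest Ptprcap of the sham libraries, 2.4949 FPKM, and the lowest Tbc1d8, 23.958 FPKM, in each case the sham value nearest to the AP libraries. Sham replicate 5 had the highest total FPKM of the sham libraries, 567491.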

How the results depend on the processing

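The count of 110 passing genes (28 higher, 82 lower) moved to 13 (4 higher, 9 lower) with variance from all 20 lung libraries, 24 (8 and 16) with no filter on low values, 42 (8 and 34) as TPM, 1182 (565 and 617) with library weights and 20 (8 and 12) with a replicate block. Of the 110 genes 12, 22, 39, 110 and 19 also passed in these fits. Only the number is shared in that pairing. Leaving out 1 library gave 27 to 349 passing genes, 7 to 183 higher and 19 to 166 lower, and between 29 and 58 without AP replicates 1, 2 or 3 or sham replicates 3, 4 or 5, 181 without AP replicate 5 and 27 without sham replicate 2. With pseudocounts of 0.1 and 0.01, other filters, upper quartile or median of ratios scaling, or no variance trend, the count stayed within 1.5 times of 110. The scalings shifted the median of all genes by -0.05 to 0.03 (log2). The WT minus KO difference passed 1 gene (higher) at a pseudocount of 0.1 and between 0 and 2 genes (0 to 1 in each direction) when a library was left out, 1 without KO AP replicate 3 or WT sham replicate 1 and 2 without KO sham replicate 2. Among the 67 named genes examined under the alternatives, none changed sign where it passed in the main fit or in the alternative. Sign changes of genes that passed in neither were not counted. Of 34 lists, 8 had a median of another sign under some alternative, none of them with a main median of 0.2 or more in size. Depth limits low genes most.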
